A study of Mus musculus with 13 samples.

Results

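The second day of a sampling of mouse back skin was set against the first, hour by hour. The members were 12 of the 13 pools of the series, chosen by their collection time: the 6 pools of the first day (ZT2, ZT6, ZT10, ZT14, ZT18 and ZT22) and the 6 of the second (ZT26, ZT30, ZT34, ZT38, ZT42 and ZT46), where ZT counts the hours since the lights first came on. Each pool of the second day was paired with the pool of its own hour on the first, which gave 6 pairs. ZT50, the remaining pool, has no such partner and is given beside the results as a further pool. All pools held whole back skin of male C57Bl6 mice labelled postnatal day 30, for which the labels name no allele or treatment, with free access to standard chow and 12 h each of light and darkness. The labels place the skin in anagen, the phase in which follicles grow hair. Equal amounts of RNA from 3 mice made each pool, and each pool was read on 1 whole-transcript array.

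Skin in anagen combines an epidermis that renews itself from its basal layer, follicles whose matrix cells divide fast and fill with keratins, sebaceous glands, dermis, fat and a thin sheet of muscle under the fat. In the upper epidermis, cells replace their membrane with a cornified envelope, in which loricrin and the late cornified envelope (LCE) and small proline-rich (SPRR) proteins are crosslinked. Division in skin and hair follows the daily clock, so days are best compared at the same hour.

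The difference is given throughout as the mean of the pair differences, second day minus first, in log2(intensity + 16). It measures a shift in level between days and not a change in the shape of the daily wave. The collection day cannot be told apart from the sets of mice, from the handling of the arrays or from an age difference of a day, which the labels do not record. No mouse contributed to more than 1 pool, so the tests see the spread among pools, and that among single animals is hidden. In whole skin, fewer cells of a type and less RNA per cell cannot be told apart.

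No gene passed the test. In limma with the hour as a block, 0 of 21789 probes with a single gene symbol reached an adjusted p under 0.05 (0.00%), and 985 had an unadjusted p under 0.05 (4.52%), where a uniform spread of p-values would give 1089.45. Of these, 518 were higher on the second day (2.38%) and 467 lower (2.14%). Without the 22 h pair, 0 probes were called (0.00%) and 1243 had an unadjusted p under 0.05 (5.70%), of which 533 were higher (2.45%) and 710 lower (3.26%). With 1 probe per gene (19938 genes), 54.0% of all genes were lower in the mean and 46.0% higher, and the lists below are read against these shares. In both fits, 656 probes had an unadjusted p under 0.05 with the same direction. The median absolute difference was 0.052 over all probes, the 95th percentile 0.18, and 46 probes had a difference over 0.5 in either direction. The median half-width of the 95% interval of a single gene was 0.16, without adjustment for the number of probes. Calls needed an adjusted p under 0.05, so shifts well above 0.16 also went uncalled, such as Spink12 at 0.59.

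The probe with the smallest adjusted p was that of Zfp980, at 0.218 in limma, a zinc-finger gene outside the rule for named genes. Its intensities were 0.252 to 7.06 on the first day, 11.6 to 17.7 a day later and 8.32 at ZT50, at the 0.658th percentile of all probes. It lies at the floor of the array, where values have little meaning as levels.

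The arrays themselves did not differ between days beyond their spread. The log2 array median differed by 0.0087 ± 0.063 (SD of the pair differences, n = 6) and was higher on the second day in 3 of 6 pairs (exact paired permutation test, two-sided p = 0.781; the smallest possible is 0.03125). The 22 h pair had the largest shift of the array median, 0.106, against -0.079 in the 10 h pair, and without the 22 h pair the mean difference was -0.011. All genes named below had adjusted p-values from 0.991 to 0.998 with all pairs in limma, and from 0.852 to 0.98 without the 22 h pair, so their differences are values and not calls.

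**Figure D1:**
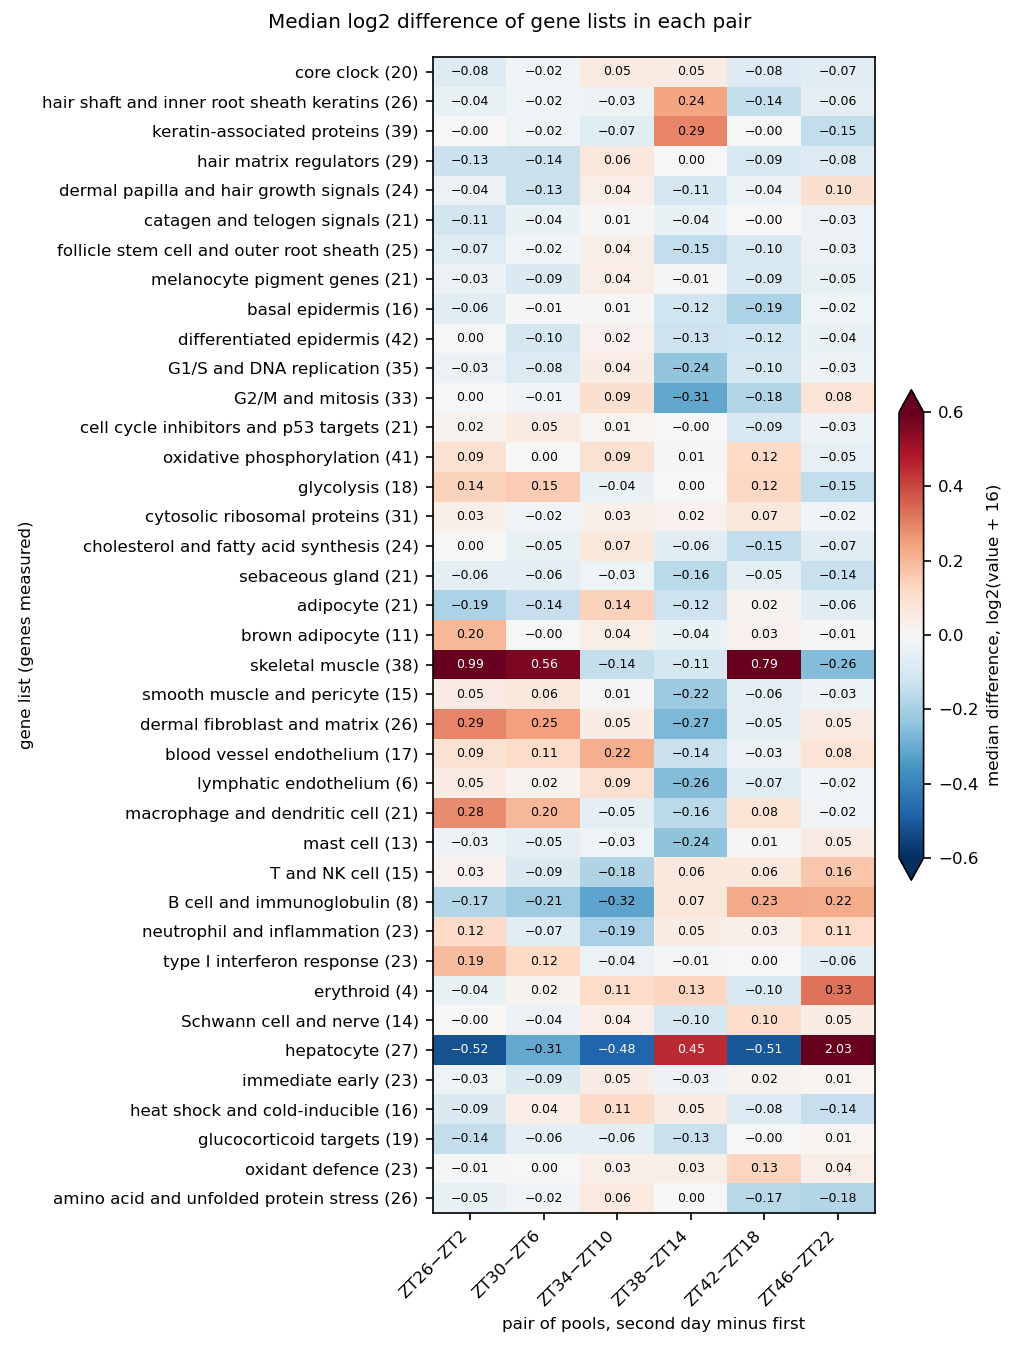
Each row is a gene list with the number of genes measured and each column a pair of pools at the same hour. Colour and number give the median difference of the list's genes, second day minus first, in log2(intensity + 16), and colour is capped at 0.6 in both directions. Skeletal muscle genes have medians of 0.99, 0.56 and 0.79 in the 2, 6 and 18 h pairs, hepatocyte genes 2.03 in the 22 h pair, and hair keratins 0.24 in the 14 h pair against -0.14 to -0.02 in the other pairs.

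The lower side of the comparison was led by genes of the late cornified envelope. Among the 12 probes of smallest p that were lower on the second day, 4 belonged to the Lce1 family (Lce1a1, Lce1c, Lce1e and Lce1h), whose proteins are laid down under the membrane of cells in the outermost epidermis. All 13 Lce1 genes measured were lower on the second day in the mean (54.0% of all genes), 12 with an unadjusted limma p under 0.05 (2.22% of all). Of the 13, 6 were lower in all 6 pairs, where 1.87% of all genes were lower in all 6 pairs and 1.31% higher in all 6. The family was picked out after its values were seen, so these counts describe it and do not test it. Its median difference was -0.27, from -0.36 for Lce1h to -0.15 for Lce1g. The genes lie side by side and are alike in sequence, so a probe may also catch RNA of its neighbours, and the 13 are not 13 separate measurements.

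Sequences upstream of the start site are shown for the pair of Lce1 genes of smallest p, since the members were lower together. They are the 250 bases before the start in RefSeq on build GRCm38.p6, at chr3:92648308-92648557 on the minus strand for Lce1a1 and chr3:92678997-92679246 on the plus strand for Lce1c. Capitals mark CAGAGCCCAG, the longest run of letters that both windows share, and TAAAAGG, which was noticed in both.
Lce1a1: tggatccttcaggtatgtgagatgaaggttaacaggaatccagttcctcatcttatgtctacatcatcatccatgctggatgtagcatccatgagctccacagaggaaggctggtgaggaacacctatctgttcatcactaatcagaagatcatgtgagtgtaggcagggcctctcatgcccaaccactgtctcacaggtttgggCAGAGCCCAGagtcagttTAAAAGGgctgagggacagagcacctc
Lce1c: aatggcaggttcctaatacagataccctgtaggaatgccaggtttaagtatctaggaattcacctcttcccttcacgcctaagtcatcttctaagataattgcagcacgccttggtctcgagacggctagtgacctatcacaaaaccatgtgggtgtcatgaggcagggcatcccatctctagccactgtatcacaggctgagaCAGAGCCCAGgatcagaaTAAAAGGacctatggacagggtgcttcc
TAAAAGG, searched on both strands, was in 11 of 13 Lce1 windows (84.6%) and in 4.2% of the 32851 windows of all genes. It began 27 bases before the start in Lce1a1 (position -27) and at position -28 in Lce1c. CAGAGCCCAG was in 5 of the 13 (38.5%) and in 0.475% of all windows, and CCAAT was in 0 of the 13 against 33.8% of all. These shares describe related copies of a gene and name no factor. Of the 13 windows, 12 belong to genes measured here, so the set is not the same as the 13 measured genes described above.

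Lce1a1 had intensities on the first day with a lowest value of 6504, a median of 7726 and a highest of 7927, and on the second day of 5847, 6340 and 6734. The days overlap through the pool ZT18, the lowest of the first day, while the other 5 pools of that day lay above all 6 of the second. The difference was -0.27 (SE 0.053, 95% interval -0.39 to -0.15), lower in 6 of 6 pairs, or 0.83 of the level of the first day. Lce1c ran from 7323 to 8754 on the first day and from 5996 to 7151 on the second, with medians of 8162 and 6827, so its days did not overlap. Its difference was -0.27 (SE 0.053). Among all probes, 47 were lower on the second day without overlap (0.216%) and 19 higher (0.0872%). Lce1j, from 6985 to 8223 and from 5836 to 6878, did not overlap either.

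The other members overlapped between days. Lce1e had medians of 3169 and then 2472, with a difference of -0.34 (SE 0.075), and Lce1h medians of 3913 and 2978, with a difference of -0.36 (SE 0.088). The family's median by pair was -0.38 at 2 h, -0.40 at 6 h, -0.05 at 10 h, -0.38 at 14 h, -0.15 at 18 h and -0.27 at 22 h. The 10 h pair was the smallest, with Lce1b, Lce1d, Lce1f, Lce1g, Lce1h and Lce1l slightly higher on the second day there. At ZT50, a pool the comparison does not use, all 13 lay below every pool of the first day, where 18.7% of all probes did. The family was picked with these first-day values seen, which alone raises that share. The pools ZT2, ZT26 and ZT50 share the same hour, and Lce1a1 read 5858 at ZT50 against a lowest value of 5847 on the second day.

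**Figure D2:**
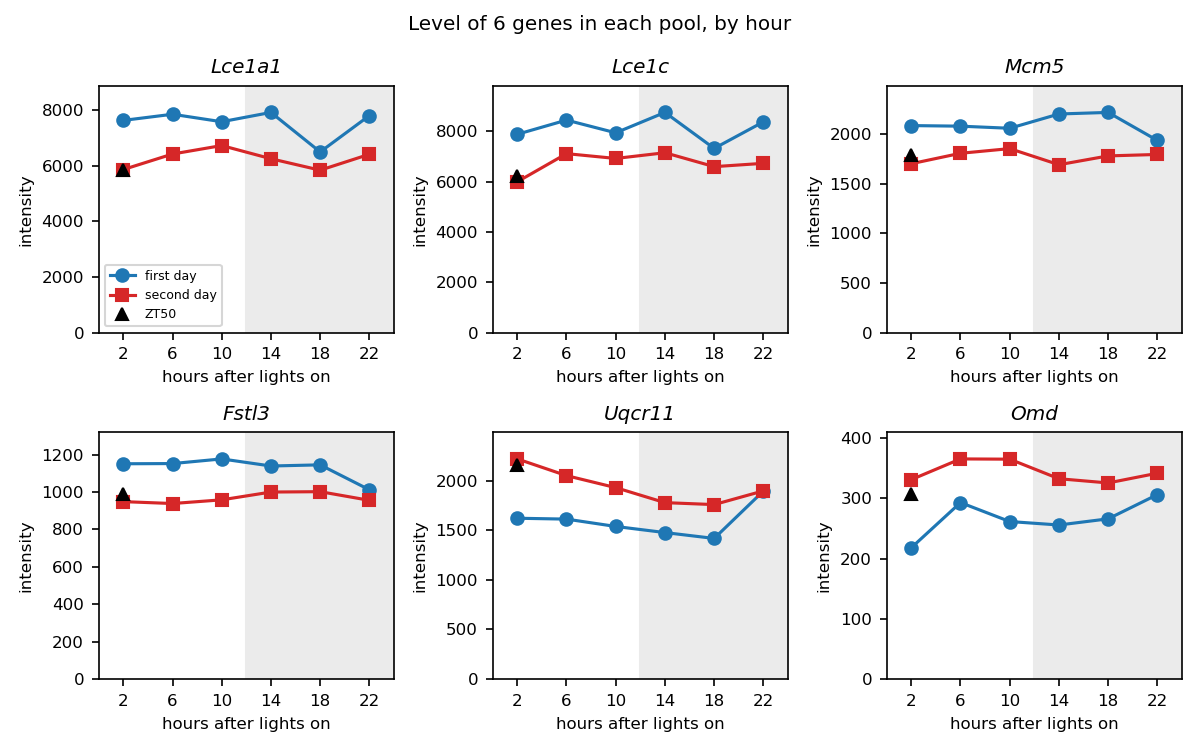
Intensity of 6 genes in each pool (y axis, linear, from 0) against hours after lights on (x axis), with the first day as blue circles, the second as red squares, ZT50 as a black triangle and the dark phase shaded. Lce1c is lower in all 6 second-day pools (at most 7151) than in any first-day pool (at least 7323), and Omd is higher in all 6 (at least 325) than in any first-day pool (at most 306).

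Other genes of the upper epidermis did not share a direction. Of 42 genes of differentiated epidermis, 9 had an unadjusted limma p under 0.05 and were lower, against 2.22% of all genes, and 3 were higher, against 2.09%; 5 of the 9 were Lce1 genes. The list's median was -0.03 beside -0.01 for all genes. Loricrin (Lor), the main protein of the envelope, ran from 7584 to 9619 on the first day (median 8338) and from 6825 to 7712 on the second (median 7020), with a difference of -0.23 (SE 0.066), lower in 6 of 6 pairs. Alox12b, a lipoxygenase of the lipid barrier, had a difference of -0.24 (SE 0.073). The early differentiation keratins stood nearer to 0: Krt10 at -0.11 (SE 0.059) and Krt1 at -0.08 (SE 0.080). Acer1, an alkaline ceramidase of epidermis that was among the 12 of smallest p, was -0.23 (SE 0.058), with medians of 2981 and 2577.

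Some envelope genes of the kinds that skin damage induces were higher in the mean. Lce3c, one of them, had medians of 458 and then 1104 and a difference of 0.84 (SE 0.24), higher in 5 of 6 pairs. Its pairs ranged from -0.018 at 6 h to 1.94 at 14 h, and the days overlap widely, since 1 pool of the first day read 1568. It stood apart from its family. Of 5 Lce3 genes, 4 were higher in the mean (46.0% of all genes), with a median of 0.10. Only 1, Lce3c, had an unadjusted limma p under 0.05 and was higher (2.09% of all), and Lce3f was -0.16. Of 9 Sprr2 genes measured, 6 were higher in the mean (46.0% of all genes) and 3 lower, down to Sprr2b at -0.27. An unadjusted limma p under 0.05 was seen for 3 that were higher (2.09% of all genes). They were Sprr2e at 0.35 (SE 0.088), Sprr2h at 0.31 (SE 0.13) and Sprr2d at 0.30 (SE 0.11). Sprr2e rests on intensities of 272 to 424 and 310 to 480, and Sprr2h had its highest pair difference, 1.07, at 14 h. Repetin (Rptn), a protein of the same envelope, was 0.38 (SE 0.13). S100a6, a calcium-binding protein of the same gene cluster, was 0.18 (SE 0.056), higher in 6 of 6 pairs. The Sprr2 copies are also close in sequence, so their probes may share signal.

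In the basal epidermis, 14 of 16 genes were lower in the mean, where 54.0% of all genes were, and 2 had an unadjusted p under 0.05 and were lower, where 2.22% were. Krt15, a keratin of basal and bulge cells, had medians of 6474 and 5567 with a difference of -0.22 (SE 0.065), lower in 6 of 6 pairs. Krt14, the keratin of the basal layer, ran from 9762 to 10474 and from 9079 to 9733, without overlap, yet differed by -0.11 (SE 0.049). The list's median was -0.06, within the interval half-width of a single gene.

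**Figure D3:**
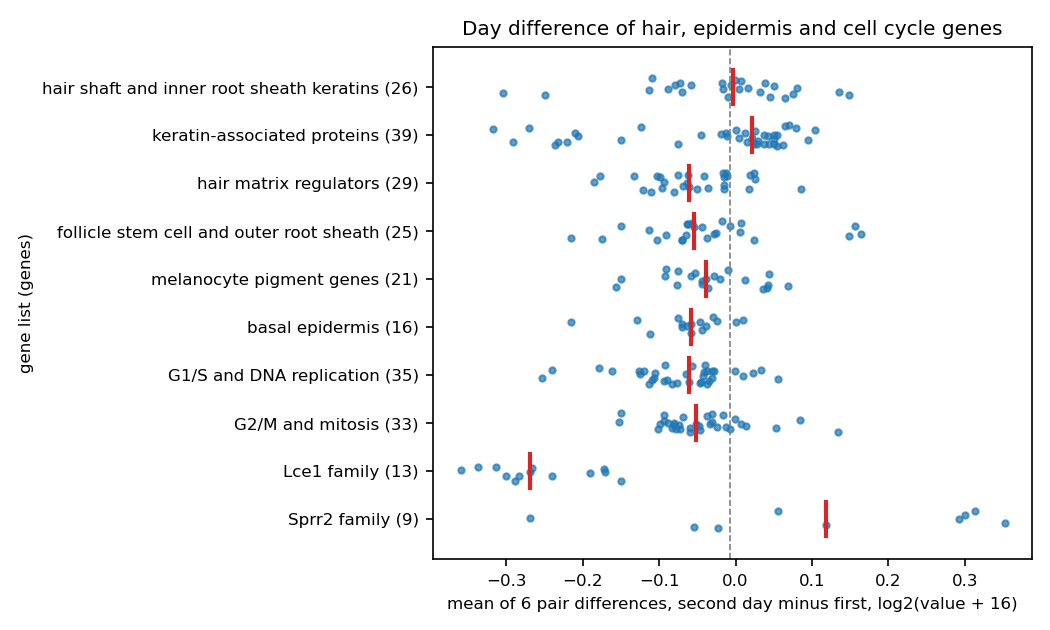
Each blue point is a gene, placed by its mean difference over the 6 pairs (x axis, log2(intensity + 16)), with points spread vertically at random within a row, the red bar at the list's median and the dashed line at the median of all genes, -0.01. All 13 Lce1 genes lie at -0.15 or below, while the Sprr2 genes lie on both sides of 0 and the cell cycle lists centre at -0.06 and -0.05.

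Genes of DNA replication were lower by small amounts. Of 35 genes of G1/S and replication, 31 were lower in the mean (54.0% of all genes), 5 had an unadjusted limma p under 0.05 and were lower (2.22% of all), and 4 were lower in all 6 pairs (1.87% of all). The median was -0.06. Mcm5, a subunit of the MCM helicase that unwinds DNA at replication origins, had a lowest value of 1939, a median of 2086 and a highest of 2222 on the first day, and 1694, 1790 and 1856 on the second. The days did not overlap. Its difference was -0.24 (SE 0.056), from -0.38 in the 14 h pair to -0.11 in the 22 h pair. Cdt1, which loads that helicase onto origins, ran from 754 to 902 and from 607 to 736, also without overlap, with a difference of -0.25 (SE 0.071). Uhrf1, which carries DNA methylation through replication, was -0.18 (SE 0.061), Mcm3 -0.16 (SE 0.068) and Orc1, a subunit of the origin recognition complex, -0.11 (SE 0.048). Another helicase subunit, Mcm2, was -0.09 (SE 0.056).

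The promoter of Mcm5 is shown because replication genes were mostly lower as a list. The 250 bases lie at chr8:75109259-75109508 on the plus strand (RefSeq, GRCm38.p6), with capitals on matches to the letters of an E2F site (TTTGGCGC, TTTCGCGC, TTTCCCGC or TTTGCCGC) and on CCAAT.
Mcm5: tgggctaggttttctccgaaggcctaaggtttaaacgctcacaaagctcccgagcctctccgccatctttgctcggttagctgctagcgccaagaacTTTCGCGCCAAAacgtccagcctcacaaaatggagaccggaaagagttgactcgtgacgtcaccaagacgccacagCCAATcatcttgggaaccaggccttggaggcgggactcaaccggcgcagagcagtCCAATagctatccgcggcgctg
The E2F letters matched on both strands, at positions -153 and -149, and these matches overlap. On either strand they were in 9 of 37 windows of 29 genes of the replication list (24.3%) and in 1.86% of all windows. CCAAT, here at positions -77 and -22, was in 64.9% of the list's windows and 33.8% of all. A match is a run of letters and not a measured site.

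Genes of G2/M and mitosis had a median of -0.05, with 28 of 33 lower in the mean (54.0% of all genes), 2 lower with an unadjusted p under 0.05 (2.22% of all) and 1 lower in all 6 pairs (1.87% of all). Cdc20, an activator of the anaphase-promoting complex, was -0.15 (SE 0.061) and Aurkb, a mitotic kinase, -0.15 (SE 0.068). Top2a was -0.08 (SE 0.065), with medians of 2097 and 1990, and 0.09 on its other, dimmer probe. Mki67, the common marker of cycling cells, was 0.01 (SE 0.083), with medians of 3818 and 3971. Mki67 crosses 0 without the 2, 10 or 22 h pair and with arrays centred on their medians. The list's median was -0.31 in the 14 h and -0.18 in the 18 h pair, and from -0.01 to 0.09 in the other pairs.

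Hair genes stayed close to their level of the first day in the mean. Of 26 keratins of the hair shaft and inner root sheath, 14 were lower and 12 higher, with a median of -0.003. Of 39 keratin-associated proteins 24 were higher, where 46.0% of all genes were, with a median of 0.02. In the 14 h pair 26 of 26 and 39 of 39 were higher (49.3% of all genes). In the other pairs only 3 to 11 and 4 to 19 were higher (41.5% to 55.8% of all genes), with negative medians. An unadjusted limma p under 0.05 was seen for 2 and 3 that were lower (2.22% of all genes) and 0 that were higher (2.09% of all). The keratins of smallest p in the list were Krt82 and Krt40. Krt82 ran from 5317 to 7173 and from 4682 to 5893, with a difference of -0.25 (SE 0.088), and Krt40 was -0.30 (SE 0.12), both lower in 5 of 6 pairs. Krt35, a keratin of the early cortex and cuticle, was -0.11 (SE 0.059), lower in 5 of 6 pairs. The Krtap5 genes, cysteine-rich proteins of the cuticle, were all lower in the mean (5 of 5, where 54.0% of all genes were), with a median of -0.22. Krtap5-3 had medians of 13485 and 10864 without overlap and a difference of -0.30 (SE 0.088), and Krtap5-2 medians of 19399 and 16800 and a difference of -0.22 (SE 0.067). At ZT50, 26 of the 39 keratin-associated genes lay below every pool of the first day, where 19.2% of all genes did.

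The 14 h pair set ZT38 against ZT14 and stood apart for the hair and cell cycle genes. There 26 of 26 hair keratins and 39 of 39 keratin-associated proteins were higher on the second day, where 49.3% of all genes were, and their medians were 0.24 and 0.29. In the same pair 0 of 33 mitotic genes and 2 of 35 replication genes were higher, and 1 of 26 genes of dermal fibroblasts and matrix, with medians of -0.31, -0.24 and -0.27. Both pools lay at an extreme of their day. ZT14 had the lowest mean log2 level of hair keratins on the first day, 12.84 against 12.98 to 13.07 in the other pools. Its mitotic genes were the highest of that day only narrowly, 10.41 against 10.22 to 10.40. ZT38 had the highest level of hair keratins on the second day, 13.09 against 12.89 to 13.06. Its mitotic genes were the lowest, 10.10 against 10.22 to 10.365. With 1 pool on each side this difference has no replicate check.

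Regulators of the hair matrix were lower in 24 of 29 cases, where 54.0% of all genes were, with a median of -0.06. Of these, 3 had an unadjusted p under 0.05 (2.22% of all genes) and 2 were lower in all 6 pairs (1.87% of all). Msx1, a homeobox factor of the matrix, was -0.18 (SE 0.063), lower in 6 of 6 pairs, Wnt10a -0.19 (SE 0.070) and Bmp4 -0.12 (SE 0.049). Lef1, the factor that reads Wnt signals in the matrix, was -0.05 (SE 0.070) and Shh, the growth signal of the follicle tip, -0.11 (SE 0.070). Among 21 genes of the onset of catagen and telogen, the regression and rest of the follicle, 14 were lower (54.0% of all genes), 2 of them with an unadjusted p under 0.05 (2.22% of all), and 1 was higher with such a p (2.09% of all). Tgfb2, a signal known to bring on regression, was 0.21 (SE 0.067), higher in 6 of 6 pairs, while Tnf was -0.23 (SE 0.074), lower in 6 of 6. Among 21 pigment genes Pmel, the fibril protein of the melanosome, was -0.16 (SE 0.057) and tyrosinase (Tyr) -0.03 (SE 0.048).

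Sebaceous genes were lower in 20 of 21 cases in the mean, where 54.0% of all genes were, with a median of -0.05. An unadjusted p under 0.05 was seen for 2 that were lower (2.22% of all genes) and 1 that was higher (2.09% of all). Fa2h, which hydroxylates fatty acids for sebum, had medians of 4520 and 3742 and a difference of -0.25 (SE 0.070). Elovl3, which lengthens fatty acids, ran from 3911 to 4832 and from 3380 to 3888, without overlap, with a difference of -0.22 (SE 0.068). Mgst1, a glutathione transferase of the gland, went the other way, from 2919 to 3080 and from 3139 to 3496, without overlap and with a difference of 0.13 (SE 0.049). Of 24 genes of cholesterol and fatty acid synthesis, 20 were lower (54.0% of all genes), among them fatty acid synthase (Fasn) at -0.15 (SE 0.054) and mevalonate kinase (Mvk) at -0.16 (SE 0.060). Of 21 adipocyte genes, 15 were lower (54.0% of all genes), with Plin1, the coat protein of fat droplets, at -0.15 (SE 0.059) and Adipoq, the fat hormone adiponectin, at -0.09 (SE 0.070).

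Single genes of other function were lower in 6 of 6 pairs. Fstl3, a secreted inhibitor of activin, ran from 1012 to 1177 (median 1148) and from 938 to 1002 (median 957), without overlap, with a difference of -0.22 (SE 0.052). Sart1, a splicing factor, was -0.24 (SE 0.054), Prdm11 -0.21 (SE 0.051), the transporter Slc6a17 -0.23 (SE 0.053), the lens crystallin Crygf -0.33 (SE 0.076), Ano7 -0.28 (SE 0.080) and Dkkl1 -0.29 (SE 0.074). On 1 of its probes the ABC transporter Abcb5 was -0.33 (SE 0.075), while its other probe gave 0.02 and was higher in 3 of 6 pairs. Prdm11, Slc6a17 and Ano7 did not overlap between days.

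The higher side was less uniform. Spink12, of the Kazal family of protease inhibitors, had the smallest p among genes above the floor. Its intensities had a lowest value of 113, a median of 133 and a highest of 246 on the first day, and 170, 199 and 391 on the second, so the days overlap. Paired by hour it was higher in 6 of 6, with a difference of 0.59 (SE 0.098), or 1.5-fold. Osteomodulin (Omd), a small leucine-rich proteoglycan of the matrix, ran from 218 to 306 and from 325 to 365, without overlap, with a difference of 0.35 (SE 0.064). At ZT50 it read 307, just above the first-day range and below the second. Gja4, the vascular gap junction protein connexin 37, was 0.21 (SE 0.050), from 0.15 to 0.33 over the pairs. Also higher in 6 of 6 pairs were Mlf1 at 0.39 (SE 0.089), Speer3 at 0.35 (SE 0.068), Tstd3 at 0.21 (SE 0.054), Zfp935 at 0.39 (SE 0.12) and the casein Csn3 at 0.54 (SE 0.14).

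Genes of mitochondrial respiration were higher by small amounts in the mean. Of 41 genes of oxidative phosphorylation, 27 were higher in the mean (46.0% of all genes), and 3 had an unadjusted p under 0.05 and were higher (2.09% of all), with a median of 0.03. Uqcr11, a small subunit of complex III, had medians of 1575 and 1914 with a difference of 0.28 (SE 0.065), of which the 22 h pair gave 0.00. Its other probe gave 0.16. Cox20, an assembly factor of complex IV, was 0.25 (SE 0.063). Ndufb8 was 0.16 (SE 0.063), Cox5a 0.16 (SE 0.059) and Ndufb5 0.13 (SE 0.053). Of 31 cytosolic ribosomal proteins, 24 were higher (46.0% of all genes), with a median of 0.02, led by Rps12 at 0.17 (SE 0.052), higher in 6 of 6 pairs, and Rpl24 at 0.15 (SE 0.061). At ZT50, 17 of the 41 respiratory genes and 15 of the 31 ribosomal ones lay above every pool of the first day, where 8.20% of all genes did.

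Skeletal muscle genes had the largest median of the 39 lists, and it came from particular pools. Of 38 genes, 37 were higher in the mean (46.0% of all genes), 4 had an unadjusted p under 0.05 and were higher (2.09% of all) and 1 was higher in all 6 pairs (1.31% of all), with a median of 0.31. Their summed intensity ran from 77420 to 142410 on the first day and from 85572 to 156538 on the second, so the days overlap, and none of the 38 was listed at 0 in any pool. The median was 0.99 in the 2 h, 0.56 in the 6 h and 0.79 in the 18 h pair, and -0.14, -0.11 and -0.26 at 10, 14 and 22 h. Without the 22 h pair the median was 0.41 and 24 of 38 had an unadjusted p under 0.05, where 2.22% of all genes were higher at that level. How much muscle lay in each skin sample was not tested.

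Triadin (Trdn), which anchors the calcium store of muscle to its release channel, is represented by 19 probes, all higher in the mean. On the probe of smallest p its intensities had a lowest value of 89.8, a median of 242 and a highest of 351 on the first day, and 331, 529 and 708 on the second. The difference was 1.13 (SE 0.28), the largest of the Trdn probes, from 0.17 at 14 h to 2.54 at 2 h. The brightest Trdn probe gave 0.47, and the lowest difference was 0.26. Cardiac actin (Actc1) was 0.87 (SE 0.28), the fast myosin light chain Mylpf 0.62 (SE 0.21), the actin filament protein Lmod3 0.48 (SE 0.13) and the titin cap Tcap 0.33 (SE 0.094). Skeletal actin (Acta1) was 0.19 (SE 0.14), higher in 3 of 6 pairs. Cox7a1 at 0.47 (SE 0.16) and Cox8b at 0.52 (SE 0.20), muscle and brown fat forms of cytochrome oxidase subunits, had their highest pair differences at 2 and 18 h, as the muscle list did. Of 18 glycolysis genes, 14 were higher in the mean (46.0% of all genes), with a median of 0.03. In the 2 h pair 17 were higher (48.8% of all genes) and in the 22 h pair 2 (55.8% of all). Eno3, the muscle enolase, was 0.32 (SE 0.17).

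**Figure D4:**
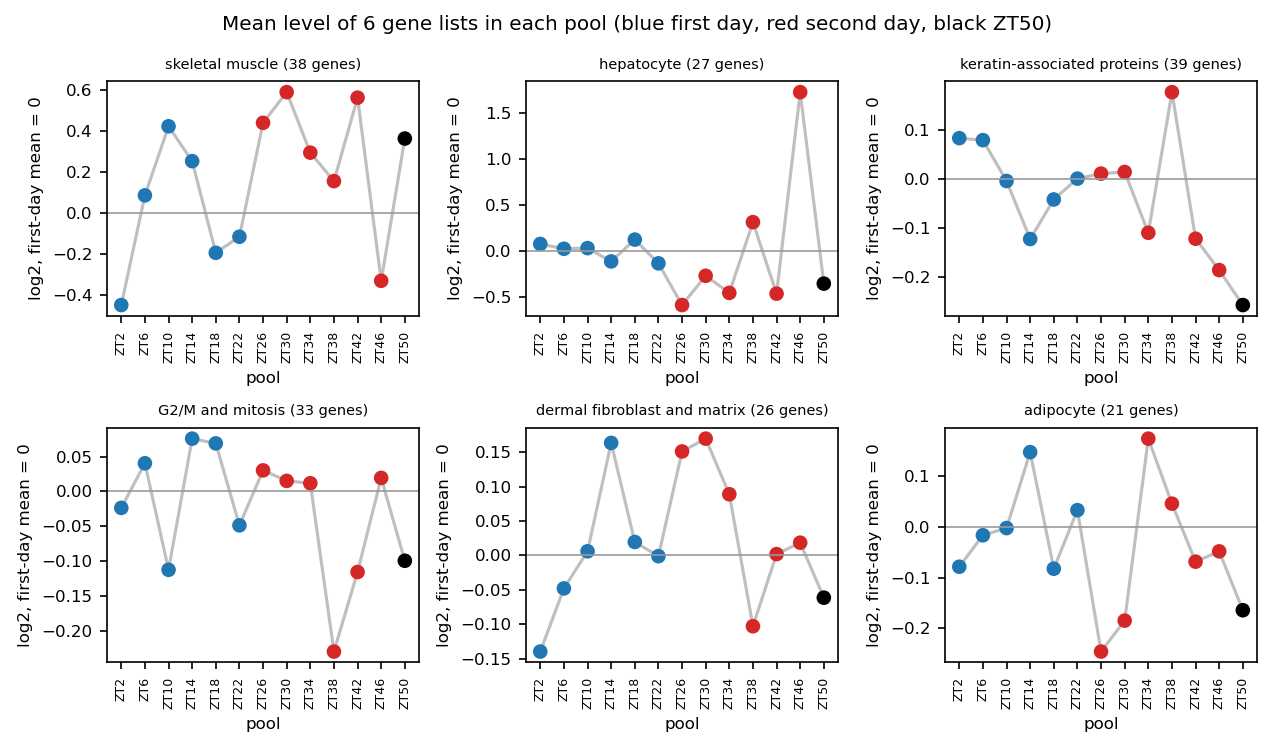
Mean log2 level of 6 gene lists in each pool (y axis, relative to the mean of the 6 pools of the first day) in order of collection (x axis), first day in blue, second in red and ZT50 in black. Hepatocyte genes peak in ZT46, muscle genes are high in ZT10, ZT26, ZT30 and ZT42 among others, and keratin-associated and mitotic genes take opposite extremes in ZT38.

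The 22 h pair stood apart through genes of liver. Of 27 hepatocyte genes, 26 were higher in that pair, where 55.8% of all genes were, with a median of 2.03, while the medians of the 2, 6, 10 and 18 h pairs lay between -0.52 and -0.31 and that of 14 h was 0.45. Their summed intensity was 60569 in ZT46 and 14332 to 25170 in the other 5 pools of the second day, against 19543 to 22339 on the first. None of the 27 was listed at 0 in any pool. Albumin (Alb), the main liver protein of blood, ran from 2010 to 3614 on the first day (median 2911) and from 1027 to 10035 on the second (median 1599). Its difference was -0.34 (SE 0.47), from -1.80 at 18 h to 1.94 at 22 h. Apoc3, an apolipoprotein, was 0.20 (SE 0.44) with all pairs and -0.37 without the 22 h pair. Without that pair the list's median was -0.32 and 11 of 27 were lower with an unadjusted p under 0.05, where 3.40% of all genes were, and 0 were called in limma. The origin of liver transcripts in these pools was not tested.

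Major urinary protein genes, abundant in liver, were higher in the mean (3 of 3, where 46.0% of all genes were). Mup21 ran from 147 to 265 and from 187 to 686 and was 0.60 (SE 0.13), higher in 6 of 6 pairs, and 0.45 without the 22 h pair. Mup3 was 0.59 (SE 0.40) and 0.09 without that pair, and Mup5 0.24 (SE 0.090) and 0.16. Their sequences were not compared here, so whether these probes read each other's RNA is not known.

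Genes of fibroblasts and of macrophages took opposite directions in different pairs. In the 2 h pair 25 of 26 fibroblast and matrix genes and 18 of 21 macrophage and dendritic cell genes were higher, where 48.8% of all genes were, with medians of 0.29 and 0.28. In the 6 h pair 24 and 18 were higher, where 41.5% of all genes were, with medians of 0.25 and 0.20. In the 14 h pair only 1 and 3 were higher, with medians of -0.27 and -0.16. Over all pairs the fibroblast list had a median of 0.05. Dpp4 was 0.17 (SE 0.069) and Mfap5 0.18 (SE 0.074), while collagen Col1a1 was -0.01 (SE 0.069), with medians of 14534 and 14608. C1qa, a complement protein of macrophages, ran from 961 to 1039 and from 1022 to 1210, with a difference of 0.18 (SE 0.052), higher in 6 of 6 pairs, and its partner C1qb was 0.15 (SE 0.072). Emcn, of capillary and venous endothelium, was 0.18 (SE 0.063). Klrb1c, an NK cell receptor, was 0.32 (SE 0.11) at intensities of 39.1 to 90.9. Of the 15 T and NK cell genes, 9 were lower in the mean (54.0% of all genes), with a list median of -0.02. Only 9 of the 15 were at or above the 25th percentile of level. The mast cell receptor Mrgprb2 was -0.22 (SE 0.078), and 11 of 13 mast cell genes were lower (54.0% of all genes).

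Of 20 core clock genes, 14 were lower in the mean (54.0% of all genes), 2 had an unadjusted p under 0.05 and were lower (2.22% of all), and 2 were lower in all 6 pairs (1.87% of all). Per1, a light- and hormone-responsive repressor of the clock, was -0.20 (SE 0.079), of which the 2 h pair gave -0.61, and Bhlhe40, another repressor, -0.19 (SE 0.058), both lower in 6 of 6 pairs. Per2 was -0.13 (SE 0.067). Fkbp5, a target of glucocorticoids, was -0.22 (SE 0.072), lower in 6 of 6 pairs, and Tsc22d3, another, -0.14 (SE 0.065). Among 23 immediate early genes, Nr4a3, a nuclear receptor induced by stimuli, ran from 422 to 568 and from 375 to 416, without overlap, with a difference of -0.25 (SE 0.066). Myc, the growth factor-induced transcription factor, was -0.24 (SE 0.066), lower in 5 of 6 pairs. Junb was 0.15 (SE 0.071).

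The 6 pair differences were compared with each other across the 21789 probes. Separate pairs share no pool, but each probe carries its own noise and array-wide shifts enter every value, so the correlations are descriptions. Differences of the light-phase pairs (2, 6 and 10 h) correlated with each other, with Pearson r of 0.23 to 0.57. Those of the dark-phase pairs (14, 18 and 22 h) had r of 0.077 to 0.28. Light with dark pairs had r of -0.43 to 0.18, with a median of -0.14 over 9 combinations. After quantile normalization the ranges were 0.25 to 0.59, 0.033 to 0.24 and -0.27 to 0.20, and without the muscle and hepatocyte lists they were 0.23 to 0.55, 0.10 to 0.27 and -0.43 to 0.10. The mean over the 6 pairs therefore averages pairs whose differences were alike within the light phase and unlike, in part opposed, between light and dark.

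**Figure D5:**
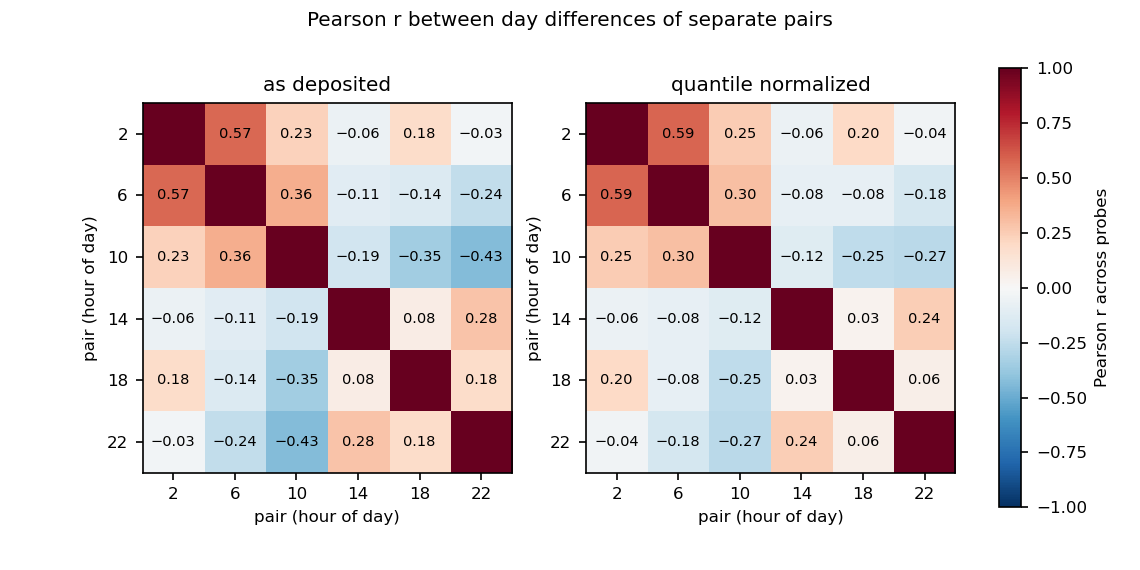
Each cell gives Pearson r across 21789 probes between the day differences of 2 pairs, named by their hour, on the values as deposited and after quantile normalization. The 2, 6 and 10 h pairs have r of 0.23 to 0.57 among themselves as deposited, and the 10 and 22 h pairs have the lowest r, -0.43.

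ZT50 shares the hour of ZT2 and ZT26 and did not enter the fit. It entered the choice of named genes only through the mean level over all pools, used for the filter and the brightest probe. Of the 16 probes named for being higher on the second day (15 genes), ZT50 lay above the first-day median for 14 and above every first-day pool for 9, where 8.92% of all probes did. Of the 17 named for being lower, it lay at or below the first-day median for 16 and below every first-day pool for 13, where 18.7% of all probes did. Crygf read 1080 at ZT50, above its first-day median of 990, while Krtap5-3 read 9303, below its lowest second-day value of 9573. The named genes include 6 of the Lce1 family, which are not independent of each other, and ZT50 is a single pool. The named genes were chosen in part by the same first-day values that ZT50 is set against, so the choice alone raises these shares.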

How the data were processed

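RNA of whole back skin was read on 13 Affymetrix arrays of a single colour. The table deposited by the authors holds 1 intensity per probe and array, linear judging by its range. PLIER 2.0 and Affymetrix Expression Console 1.1.1 are named in the submitters' processing notes without saying what each did. How arrays were scaled, and the genome build, are not given in the sources used here. The number of arrays limits the precision.

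Of 35557 probes, 21789 had 1 gene symbol in the platform annotation used (19938 genes), 1621 had several and the rest none. For the 999 genes with several probes, list counts used the brightest on average. Intensities were taken as deposited and used as log2(value + 16), which understates differences of dim genes. The fit in limma 3.58.1 (R 4.3.3) had a day term and the hour as a block over 12 pools, with moderated tests and Benjamini-Hochberg adjustment over the 21789 probes and calls at an adjusted p under 0.05. It was tested on simulated data first. The labels pair pools by hour, which the block uses, and give no shared animal or batch for a pair. Exact tests flip the signs of pair differences, two-sided.

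The comparison, its 39 gene lists (945 genes, 843 measured) and the rule for named genes were chosen with earlier results of these data known, among them a time trend of Mcm5, Cdt1, Uhrf1, Bhlhe40, Elovl3 and Mgst1 in the same pools, so these lend no independent support. Lists are described by counts and medians without a test. Named were the 12 smallest p in each direction, the 8 largest differences in each direction among probes with 1 sign in all 6 pairs (both at or above the 25th percentile of level, 7.61 log2), up to 3 genes of smallest p per list, and Krt35, Lef1, Shh, Tyr, Mki67, Mcm5, Adipoq, Acta1 and Alb. Krt85, also in the rule, was not measured by a probe with 1 symbol. Predicted genes, clones, small RNAs, pseudogenes and chemosensory receptors were passed over. Named after their values were seen were Zfp980 and the Lce1, Lce3, Krtap5, Sprr2 and Mup families. So were Lor, Krt1, Krt10, Alox12b, Rptn, S100a6, Top2a, Mcm2, Mcm3, Orc1, Col1a1, C1qb, Apoc3 and Cox8b. The settings varied were the scaling (quantile normalization, median centring), the pseudocount (1 and 64), filters on dim probes, all probes, the highest probe per gene, an intensity trend with robust prior, no block, muscle as covariate, ZT50 added, other thresholds and leaving out each pair. Promoter sequences are RefSeq's (GRCm38.p6), matched by symbol for 13 Lce1 genes, 12 of them measured. Plots come from matplotlib 3.10.9 (Python 3.11.15).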

Additional observations from a re-analysis of the deposited data

Results flagged for a closer look

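In 10 of 107 lists and genes examined, 1 of the 6 pair differences lay far from the others, with a gap to its nearest neighbour above Dixon's 95% critical share of the whole range. A rate of about 1 in 20 would hold for independent items. These lists and genes share members and pools, and genes were chosen partly by their pair differences, so it is no reference. The 14 h pair was the extreme for 4 of the 10. It was high for the hair shaft and inner root sheath keratins (gap 0.689 of the range, median difference 0.24), the keratin-associated proteins (0.67, median 0.29) and Krt35 (0.699, difference 0.13), and low for mast cell genes (0.642, median -0.24). The 2 h pair was high for brown adipocyte genes (0.686, median 0.20) and Zfp935 (0.711, difference 1.06). The 18 h pair was high for oxidant defence genes (0.629, median 0.13). The 22 h pair was high for Apoc3 (0.76, difference 3.06). The 10 h pair was high for the connexin gene Gja4 (0.649, difference 0.33) and nearest to 0 for Sart1 (0.664, difference -0.05).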

How the results depend on the processing

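The count of called probes was 0 with all pairs and without the 22 h pair. With all pairs it was 1 with arrays centred on their medians and 1 with no replicate block (the hour left out of the fit), and 0 to 1 when each pair was left out, the 1 being without the 14 h pair. In each case the probe was Zfp980, at the floor of the array (adjusted p 0.0217, 0.0177 and 0.0299). In all other settings run the count was 0. With an intensity trend and robust prior in limma, Lce1a1 and Lce1c had an adjusted p of 0.0939. The blocked fit is the one reported, and the pairing rests on the hour alone. Without the 22 h pair every setting gave 0. The nearest was the fit that also left out the 14 h pair, where Zfp980 had an adjusted p of 0.0639 and liver genes, lower on the second day, one of 0.0744 (Ahsg at -1.24, Serpina1d at -1.09, Kng1, Ttr, Fgg, Fgb, Fabp1 and Mug1). The list medians moved by less than the SD of their pair medians in all 468 recomputed values, but some changed sign. Without the 22 h pair the hepatocyte median went from 0.0027 to -0.32, and that of brown adipocyte genes from 0.061 to -0.023.

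Differences changed sign in these settings, and the cause was not tested. With arrays centred on their medians Mki67 was -0.000872. With the muscle mean as covariate Mki67 was -0.011, Acta1 -0.047, Alb 0.31 and Cd79a 0.023. When pairs were left out in turn, the array median ran from -0.011 to 0.026, Mki67 from -0.047 to 0.070, Lef1 from -0.081 to 0.0091, Ccnb2 from -0.061 to 0.020, Cdk1 from -0.077 to 0.022, Col1a1 from -0.048 to 0.037, Reln from -0.054 to 0.032, Apoc3 from -0.37 to 0.39 and Lce3b from -0.023 to 0.084. Dim probes such as those of Zfp980, Klrb1c and Cd79a are limited by signal over background.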
